A study of Mus musculus with 18 samples.

Results

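The genes that license origins of DNA replication, fire them and copy DNA at the fork were followed in NaF, a carcinoma line from mouse mammary gland, after 6 hours with nuclear receptor ligands or a fatty acid. The set had 46 listed genes, chosen by symbol with earlier results of these data known. Counts of them set beside the share of all genes are therefore descriptions. Of these, 45 had a probe set of their own on the array, out of 22180 genes measured, and the probe set with the highest mean over the 18 arrays stood for a gene. Rfc4, a clamp loader subunit, shared its probe set with other gene symbols and was left out. The genes were split by role into 15 licensing genes, 8 genes of origin firing and helicase assembly, 18 fork genes and 4 genes of nucleotide supply.

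The stated purpose was to see what RAR (retinoic acid receptor) and PPARδ ligands do to transcripts genome-wide, and the title links this to fatty acids and the carrier protein FABP5. Each of 6 groups held 3 Affymetrix arrays of total RNA. Cells in charcoal-treated serum, from which small lipophilic molecules have been stripped, were controls or were given a ligand. The ligands were 1 µM all-trans retinoic acid (the natural RAR ligand), 1 µM TTNPB (a synthetic RAR agonist) or 1 µM GW1516 (a synthetic PPARδ agonist). The titles of these controls do not say whether they were given vehicle. The cells in charcoal-treated serum spent 48 hours in it before the ligand. In full medium there were untreated controls and cells given 10 µM palmitate, a saturated fatty acid. Both media were DMEM with 10% serum, and the labels name no genotype or transgene. The labels do not say whether replicates were separate cultures, so the p-values reflect array-to-array spread, which may be technical. Retinoic acid, TTNPB and GW1516 were compared with the same 3 control arrays, so their changes are not independent of one another.

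Replication starts with licensing. The origin recognition complex (ORC) binds DNA and, with Cdc6 and Cdt1, loads the MCM2 to MCM7 helicase rings, while geminin (Gmnn) blocks Cdt1 outside the licensing window. The Cdc7-Dbf4 kinase and the Cdc45 and GINS proteins then turn loaded rings into moving helicases, and polymerases, the PCNA clamp, its loader RFC and the single-strand binder RPA work at the fork. Ribonucleotide reductase, thymidylate synthase and thymidine kinase supply the deoxynucleotides. Many of these genes are known targets of E2F factors, which drive their transcription as cells enter S phase.

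Because E2F control is the textbook feature of this gene family, the start regions were searched for 4 spelled-out E2F octamers, TTTCCCGC, TTTCGCGC, TTTGCCGC and TTTGGCGC, on both strands. RefSeq start regions (GRCm38.p6, 250 bases before to 50 after a start) were at hand for 37 of the 45 genes. Those not matched were Gins1, Gins2, Gins4, Gmnn, Mcm4, Pole, Prim2 and Rfc2. At least 1 octamer lay in 14 of 46 such regions (30.4%), which belonged to 14 genes, against 742 of 32817 regions of the same length in the genome-wide table (2.26%). Octamers can overlap each other, as TTTCGCGC and the reverse of TTTGGCGC do in Mcm5. CCAAT was present in 54.3% of the member regions and 37.4% of all regions, and TTTGAA in 17.4% and 17.9%. A direct repeat of the nuclear receptor half-site with 5 bases between (DR5, the classic RAR element) was in 0 member regions against 0.0975% of all regions. The PPAR-type repeat with 1 base between (DR1) was in 1 member region (2.17%) against 0.222%. A match is a string of letters and was not tested as a binding site.

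**Figure D1:**
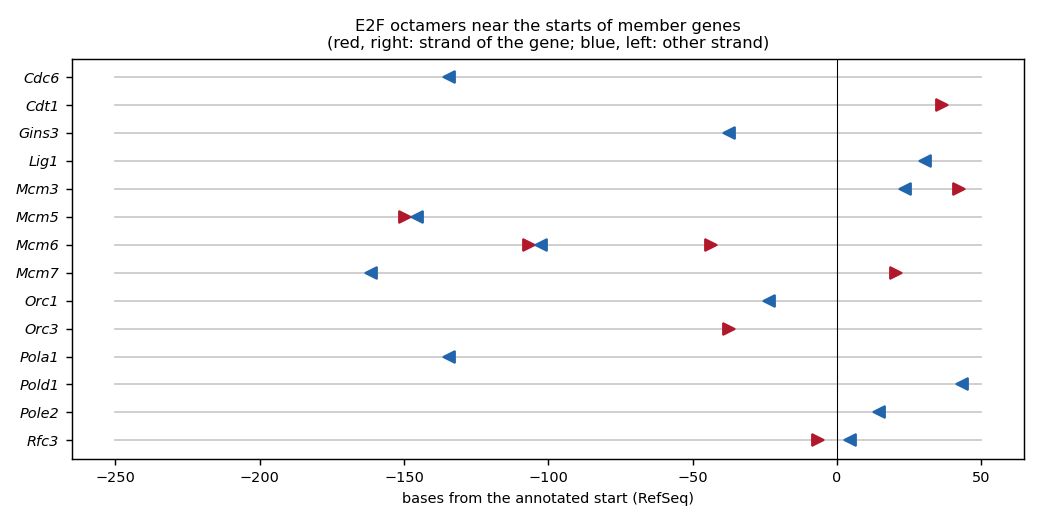
Positions of the 4 E2F octamers in the RefSeq start regions of the 14 genes that held any. The x axis gives bases from the annotated start, each grey line is the region searched, and the colour and direction of a triangle give the strand. Mcm6 shows 3 matches, and Mcm5, Mcm3, Mcm7 and Rfc3 show 2 each.

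The 250 bases before an annotated start are shown for 5 of the 14 genes with an octamer. Pola2 and Tk1, whose retinoic acid calls held under every planned setting, had no octamer and are not shown. Each is written along its own gene from 5′ to 3′ with the octamers in capitals. The start used need not be the outermost one. The Cdc6 region and its octamer lie within the annotated bounds of that gene (chr11:98907709-98923942), and the Mcm5, Orc3 and Pola1 regions overlap theirs. Cdc6, Mcm5 and Mcm6 were lower with ligands, and Orc3 and Pola1 were higher. Cdc6 and Mcm5 had a call with each ligand, Mcm6 and Pola1 with retinoic acid and GW1516, and Orc3 with retinoic acid only. Of the 14 genes with an octamer, 4 fell and 2 rose with retinoic acid, and both that rose are shown. The 5 are thus a pick from the 14, and any part of the strings in these changes was not tested. The regions are chr11:98907901-98908150 on the plus strand for Cdc6, chr8:75109259-75109508 on the plus strand for Mcm5, chr1:128359706-128359955 on the minus strand for Mcm6, chr4:34614943-34615192 on the minus strand for Orc3 and chrX:93632156-93632405 on the minus strand for Pola1 (RefSeq, GRCm38.p6).
Cdc6: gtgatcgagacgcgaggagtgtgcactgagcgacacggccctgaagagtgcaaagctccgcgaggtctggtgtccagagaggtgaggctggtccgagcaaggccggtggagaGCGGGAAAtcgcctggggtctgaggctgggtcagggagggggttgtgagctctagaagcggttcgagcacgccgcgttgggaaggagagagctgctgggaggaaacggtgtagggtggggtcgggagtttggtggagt
Mcm5: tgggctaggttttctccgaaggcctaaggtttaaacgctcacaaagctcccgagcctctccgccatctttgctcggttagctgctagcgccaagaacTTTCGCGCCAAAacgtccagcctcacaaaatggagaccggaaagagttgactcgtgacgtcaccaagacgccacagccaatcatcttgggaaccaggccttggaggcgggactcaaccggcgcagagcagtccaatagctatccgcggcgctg
Mcm6: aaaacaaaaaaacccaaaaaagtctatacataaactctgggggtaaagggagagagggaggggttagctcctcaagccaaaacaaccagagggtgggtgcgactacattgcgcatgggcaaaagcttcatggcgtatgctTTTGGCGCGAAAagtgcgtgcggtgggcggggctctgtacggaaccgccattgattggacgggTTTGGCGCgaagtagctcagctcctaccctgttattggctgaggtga
Orc3: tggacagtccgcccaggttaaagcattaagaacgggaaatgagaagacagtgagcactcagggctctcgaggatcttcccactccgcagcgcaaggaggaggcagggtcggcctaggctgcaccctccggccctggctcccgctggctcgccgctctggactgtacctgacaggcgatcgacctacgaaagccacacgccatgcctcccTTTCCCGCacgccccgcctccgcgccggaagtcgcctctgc
Pola1: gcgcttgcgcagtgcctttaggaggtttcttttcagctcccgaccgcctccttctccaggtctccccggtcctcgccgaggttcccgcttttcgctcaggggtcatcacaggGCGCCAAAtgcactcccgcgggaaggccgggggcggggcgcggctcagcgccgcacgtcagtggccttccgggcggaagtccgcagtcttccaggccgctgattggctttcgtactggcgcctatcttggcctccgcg

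Values are log2 expression values, so a difference of 1 is a doubling of the signal. The label of the cells was checked on marker genes. In charcoal controls 7 of 12 luminal epithelial markers lay above background. Krt18 was at 7.99, Cldn3 at 8.43, Cdh1 at 4.88 and Gata3 at 2.54. Krt8 (1.68), Cldn4 (1.67) and Epcam (1.51) lay little above the background of 1.31. Elf5, Esr1, Krt7, Krt19 and Cldn7 were not above it. Above background there were also 1 of 4 basal, 2 of 8 fibroblast, 3 of 6 leukocyte, 1 of 4 endothelial and 0 of 5 adipocyte markers. The highest of these were the endothelial Cdh5 (8.90) and the fibroblast marker Pdgfra, which at 4.88 stood level with Cdh1. Summed over the 12 luminal markers, the level was 33.3 to 33.7 on control arrays, 34.1 to 35.1 with retinoic acid, 34.1 to 35.7 with TTNPB and 33.6 to 34.5 with GW1516. The 6 leukocyte markers summed to 8.27 to 8.84 on control arrays, 7.37 to 8.37 with retinoic acid, 7.63 to 7.82 with TTNPB and 7.38 to 7.93 with GW1516, and the 4 endothelial ones to 11.5 to 12.4, 11.3 to 11.4, 11.2 to 11.4 and 10.7 to 11.6. On GW1516 replicate 3 Cdh5 read 7.24. The 8 fibroblast markers summed to 11.7 to 12.8 on control arrays, 12.1 to 13.3 with retinoic acid, 12.4 to 12.7 with TTNPB and 12.3 to 12.5 with GW1516. Basal and adipocyte sums of the ligand groups overlapped those of the controls. Many of these markers lay at or under background, so the sums also hold background signal. The part of these shifts in the results was not tested. Background was the 95th percentile of olfactory and vomeronasal receptor genes and came to 1.31 in charcoal controls and 0.59 in full-medium controls. All 45 genes were above it in the 4 charcoal-serum groups, and Orc4 and Pola1 were at or under it in both full-medium groups. The median level in charcoal controls was 6.20 over the 45 genes and 1.30 over all genes. In full-medium controls these were 5.17 and 0.56. Shares and medians over all genes thus take in many genes at or under background, and such shares among brighter genes alone were not computed. Array medians were 1.06 to 1.32 in charcoal serum and 0.47 to 0.55 in full medium, so levels were not compared between the sera. In RNA from whole cultures, fewer cells of a type and less RNA per cell cannot be told apart. One array stood apart. GW1516 replicate 3 lay a mean of 0.23 from its group's mean over all genes, against 0.08 to 0.15 for the other 17 arrays. All 18 arrays share 1 estimate of each gene's spread, so this array also bears on the retinoic acid, TTNPB and palmitate tests, and the counts of members are given with and without it.

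With retinoic acid, the licensing factor Cdc6, 4 of the 6 MCM helicase genes, the polymerase alpha subunit Pola2, the clamp Pcna, the flap nuclease Fen1 and the nucleotide supply genes Rrm2 and Tk1 fell after 6 hours. The origin binder Orc3, the kinase subunit Dbf4 and the catalytic polymerase alpha subunit Pola1 rose. Thus 10 of 45 genes fell and 3 rose (limma, Benjamini-Hochberg adjusted p below 0.05 over all genes), where 5.29% of all genes were called, 1.47% falling and 3.82% rising. The median change was -0.25 over the 45 genes and -0.03 over all genes. On 21 of the 45 genes every retinoic acid array lay below every control array, and on 5 every one lay above, against 11.2% and 12.9% of all genes. Without GW1516 replicate 3, 14 fell (Gins4, Gmnn, Mcm3 and Prim2 in addition) and 3 rose, with 3.1% of all genes falling and 5.98% rising.

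With TTNPB, Cdc6, Mcm4, Mcm5, Pola2, Rrm2 and Tk1 fell and no member rose. Of all genes 1.26% were called, 0.64% falling and 0.618% rising, so 6 of 45 stand beside the first of these shares and 0 beside the second. Of the 45, 24 had an unadjusted p below 0.05 (limma), as had 11.2% of all genes. The median change was -0.27 over the 45 genes and 0.00 over all genes. The TTNPB arrays lay wholly below the controls on 21 genes and wholly above on 3, against 9.11% and 8.83% of all genes. The count was sensitive to 1 array that is in neither group. Without GW1516 replicate 3, 16 fell, among them Mcm2, Mcm3, Mcm6, Mcm7, Mcm10, Cdt1, Pcna, Prim2, Rpa2 and Fen1 in addition to the first 6, with 1.87% of all genes falling and 1.88% rising.

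With GW1516, Cdc6, Mcm3, Mcm5, Mcm6, Pola2, Rrm2 and Tk1 fell, and Orc5, Dbf4 and Pola1 rose. These were 7 and 3 of 45 genes, where 2.57% of all genes were called, 0.681% falling and 1.89% rising. The median change was -0.31 over the 45 genes and -0.01 over all genes. The GW1516 arrays lay wholly below the controls on 19 genes and wholly above on 6, against 8.03% and 8.25% of all genes. Without replicate 3, 9 fell (Cdc6, Mcm2, Mcm3, Mcm5, Mcm7, Pcna, Fen1, Pola2 and Tk1) and 1 rose (Pola1), with 0.96% of all genes falling and 2.25% rising. When only the control and GW1516 arrays were fitted, no member passed, and Cdc6 had an adjusted p of 0.177.

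**Figure D2:**
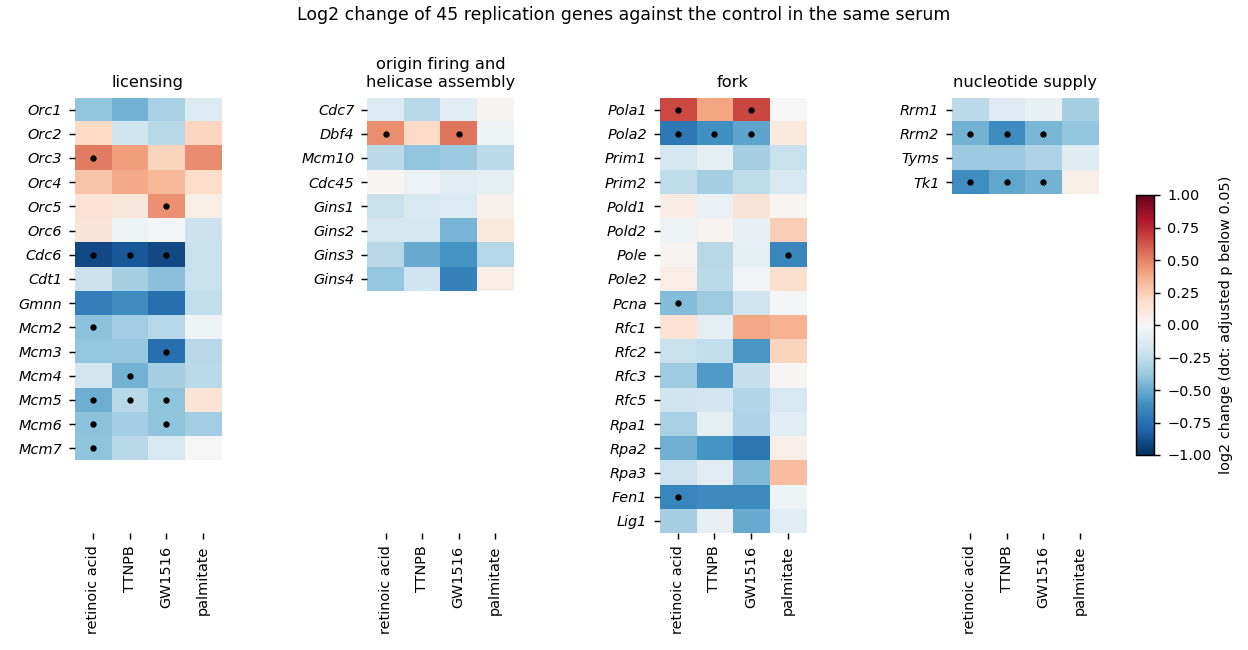
Log2 change of each of the 45 genes against the control in the same serum, by role, with blue for lower, red for higher and a dot where the adjusted p is below 0.05. Cdc6 is the darkest blue in the retinoic acid and TTNPB columns (-0.90 and -0.85), and Pole is the only dot in the palmitate column.

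Cdc6, the loader that brings MCM rings to ORC, showed the deepest fall of the 45 genes with each of the 3 ligands. The control arrays read 6.53, 6.41 and 6.58. Retinoic acid arrays read 5.43, 5.73 and 5.65, TTNPB arrays 5.65, 5.78 and 5.55, and GW1516 arrays 5.47, 5.67 and 5.68. No ligand array reached the lowest control. Cdc6 fell by 0.90 ± 0.11 (SE) with retinoic acid (limma, adjusted p = 9.86e-05), by 0.85 ± 0.11 with TTNPB (adjusted p = 0.000673) and by 0.90 ± 0.11 with GW1516 (adjusted p = 0.000514). These are 1.87-fold, 1.80-fold and 1.87-fold lower levels. The retinoic acid and TTNPB calls held under each planned setting and with each array of their groups left out.

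Cdt1 and Gmnn did not pass the test with any ligand when all arrays were used. Cdt1, the second MCM loader, read 8.28, 8.21 and 8.34 in controls, 8.04, 8.06 and 8.08 with retinoic acid, 7.97, 7.86 and 7.98 with TTNPB, and 8.22, 8.15 and 7.20 with GW1516. The retinoic acid and TTNPB arrays lay below the controls, and GW1516 replicate 3 was about 1 unit under its fellows. The change was -0.21 ± 0.17 with retinoic acid, -0.34 ± 0.17 with TTNPB and -0.42 ± 0.17 with GW1516, with adjusted p of 0.625, 0.516 and 0.248. The GW1516 change was -0.09 without replicate 3 (adjusted p = 0.591). The TTNPB change of Cdt1 kept its size without GW1516 replicate 3, with an SE of 0.07 and an adjusted p of 0.00921. Gmnn, the inhibitor of Cdt1, read 3.86, 3.04 and 3.60 in controls. It read 2.52, 3.13 and 2.79 with retinoic acid, 2.70, 3.17 and 2.75 with TTNPB, and 2.84, 2.80 and 2.61 with GW1516. Control replicate 2 of Gmnn overlapped the first 2 of these groups. Its changes of -0.69, -0.63 and -0.75 (SE 0.20 each) had adjusted p of 0.0557, 0.166 and 0.0553. Leaving out GW1516 replicate 3 made the retinoic acid change of Gmnn a call (adjusted p = 0.0343).

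The MCM2 to MCM7 genes, which encode the 6 subunits of the helicase ring, had negative changes with each of the 3 ligands, from -0.16 to -0.75. On 6 of 6 genes with retinoic acid and with TTNPB, and on 5 of 6 with GW1516, the ligand arrays lay wholly below the controls. Of all genes, 11.2%, 9.11% and 8.03% did so with retinoic acid, TTNPB and GW1516. Mcm5 read 9.42, 9.32 and 9.37 in controls, 8.81, 8.91 and 8.93 with retinoic acid, 9.09, 9.04 and 9.15 with TTNPB, and 8.90, 9.03 and 8.95 with GW1516. The control arrays stood clear of the other groups. Mcm5 fell by 0.49 ± 0.06 with retinoic acid (adjusted p = 0.000121), by 0.27 ± 0.06 with TTNPB (adjusted p = 0.0349) and by 0.41 ± 0.06 with GW1516 (adjusted p = 0.00219). Mcm6 read 7.80, 7.82 and 7.88 in controls, 7.47, 7.40 and 7.39 with retinoic acid, 7.50, 7.40 and 7.57 with TTNPB, and 7.47, 7.53 and 7.28 with GW1516. Again the control arrays were the 3 highest. Mcm6 fell by 0.41 ± 0.10 with retinoic acid and by 0.41 ± 0.10 with GW1516 (adjusted p = 0.0164 and 0.033), and its TTNPB change was -0.34 ± 0.10 (adjusted p = 0.113). With 1 array left out the adjusted p of Mcm6 reached 0.0718 with retinoic acid (without its replicate 2) and 0.0969 with GW1516 (without control replicate 3).

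Mcm2 and Mcm7 passed with retinoic acid, Mcm3 with GW1516 and Mcm4 with TTNPB. Mcm2 fell by 0.41 ± 0.09 and Mcm7 by 0.40 ± 0.09 with retinoic acid (adjusted p = 0.0078 and 0.0129), and the latter was 0.0559 without control replicate 1. Mcm4 read 7.95, 7.95 and 8.07 in controls and 7.52, 7.45 and 7.60 with TTNPB, a fall of 0.47 ± 0.10 (adjusted p = 0.0296). With retinoic acid Mcm4 read 7.84, 7.88 and 7.71, which left a change of -0.18 ± 0.10. Mcm3 read 8.12, 8.04 and 8.16 in controls and 7.64, 7.67 and 6.76 with GW1516. Its fall of 0.75 ± 0.16 (adjusted p = 0.0161) rested in part on the lowest array, and without that array Mcm3 fell by 0.45 ± 0.07 (adjusted p = 0.00136). Mcm7 moved the other way on the same array, with 7.99, 8.02 and 8.38 against controls of 8.34, 8.24 and 8.31. When GW1516 replicate 3 was left out, 5 of 6 MCM genes passed with retinoic acid, 6 of 6 with TTNPB and 4 of 6 with GW1516. In those fits 3.1%, 1.87% and 0.96% of all genes fell. Mcm4 and Mcm5 with TTNPB lost the call when any 1 of the 6 arrays compared was left out, with adjusted p up to 0.133 and 0.162 (both without TTNPB replicate 2).

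**Figure D3:**
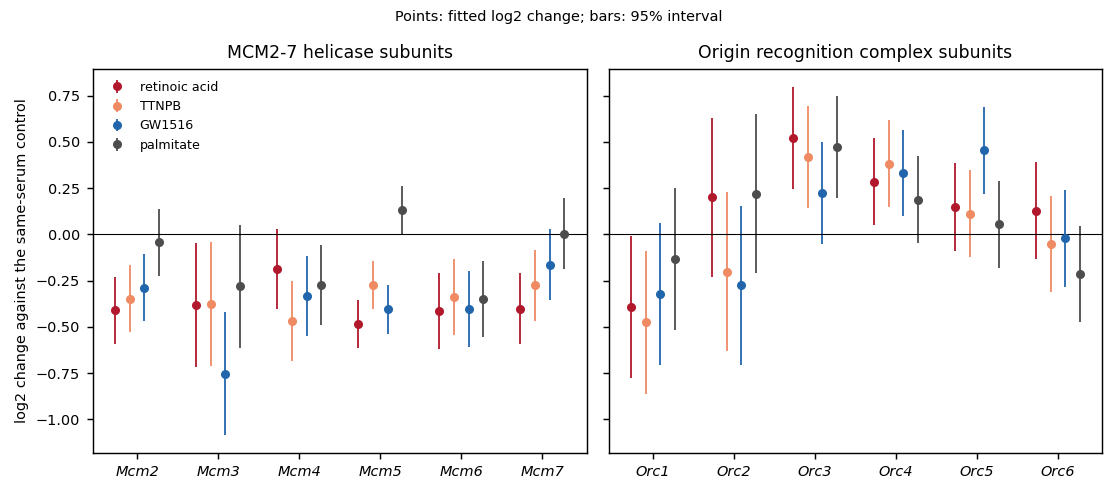
Fitted log2 change with 95% intervals for the 6 helicase genes and the 6 origin recognition complex genes, by treatment, against the control in the same serum. The ligand points of the helicase genes lie below 0 (down to -0.75), and those of Orc3, Orc4 and Orc5 lie above 0 (up to 0.52).

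The origin recognition complex, which marks origins through most of the cell cycle, had changes of both signs. Orc3 read 4.34, 4.30 and 4.46 in controls and 4.86, 5.02 and 4.79 with retinoic acid, a rise of 0.52 ± 0.13 (adjusted p = 0.025, or 0.134 without retinoic acid replicate 2). With TTNPB it read 4.83, 4.57 and 4.95 and with GW1516 4.63, 4.67 and 4.48, which were above the controls on every array but did not pass (0.42, adjusted p = 0.158, and 0.22, adjusted p = 0.446). Orc5 read 5.53, 5.34 and 5.63 in controls and 5.98, 5.83 and 6.04 with GW1516, and rose by 0.45 ± 0.11 (adjusted p = 0.037). Without GW1516 replicate 3 the adjusted p of Orc5 was 0.0708, and without control replicate 2 it was 0.157. Orc4 was higher on every ligand array than on every control array, by 0.29, 0.38 and 0.33, with adjusted p of 0.18, 0.12 and 0.132. Orc1, a subunit whose gene is a known E2F target, had changes of -0.39, -0.48 and -0.32 and did not pass. Over the 6 subunits the median change was 0.17 with retinoic acid, 0.03 with TTNPB and 0.10 with GW1516, against -0.41, -0.34 and -0.37 over the 6 helicase genes. Orc2 and Orc6 changed by -0.27 and -0.02 with GW1516, and by 0.04 and 0.06 without replicate 3. The difference between the complexes was not tested.

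Among the 8 genes of origin firing and helicase assembly, the only calls were rises of Dbf4, the subunit that activates the kinase Cdc7. Dbf4 read 6.41, 6.22 and 6.52 in controls, 6.91, 6.89 and 6.74 with retinoic acid, 6.62, 6.40 and 6.69 with TTNPB, and 7.03, 6.68 and 7.03 with GW1516. Retinoic acid and GW1516 arrays were above all controls, and TTNPB arrays overlapped them. Dbf4 rose by 0.46 ± 0.12 with retinoic acid (adjusted p = 0.0329) and by 0.53 ± 0.12 with GW1516 (adjusted p = 0.0272), and its TTNPB change was 0.19 ± 0.12 (adjusted p = 0.661). The GW1516 call had an adjusted p of 0.053 without replicate 3, and the retinoic acid call one of 0.16 without control replicate 2. Its kinase partner Cdc7 changed by -0.14, -0.28 and -0.10 and did not pass, and the GW1516 value was 0.04 without replicate 3. Mcm10, which helps activate the helicase, changed by -0.26, -0.39 and -0.37 and passed only with TTNPB when GW1516 replicate 3 was left out (adjusted p = 0.0303).

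The 4 GINS genes, whose products join Cdc45 on the active helicase, had negative changes with each ligand and no calls. Gins4 read 7.90, 7.80 and 7.92 in controls, 7.46, 7.48 and 7.51 with retinoic acid, 7.73, 7.59 and 7.70 with TTNPB, and 7.59, 7.57 and 6.42 with GW1516. The low GW1516 array set the spread. With all arrays the retinoic acid change of -0.39 ± 0.21 had an adjusted p of 0.379, and without GW1516 replicate 3 Gins4 fell by 0.39 ± 0.09 (adjusted p = 0.00822). The GW1516 changes of Gins2, Gins3 and Gins4 were -0.46, -0.60 and -0.68 with that array and -0.27, -0.26 and -0.29 without it. Cdc45 itself changed by 0.02, -0.06 and -0.11, with overlapping arrays in each comparison.

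At the fork, the subunits of the polymerase alpha complex, which lays down primers, went in opposite directions. Pola2, its regulatory B subunit, read 8.02, 7.75 and 8.09 in controls, 7.25, 7.21 and 7.26 with retinoic acid, 7.34, 7.30 and 7.37 with TTNPB, and 7.48, 7.40 and 7.39 with GW1516. Every ligand array was below every control. Pola2 fell by 0.71 ± 0.09 (adjusted p = 0.000101), 0.62 ± 0.09 (adjusted p = 0.00148) and 0.53 ± 0.09 (adjusted p = 0.00375), which is 1.64-fold, 1.53-fold and 1.44-fold lower. Pola1, the catalytic subunit, read 4.17, 4.12 and 4.46 in controls, 4.97, 4.95 and 4.80 with retinoic acid, 4.58, 4.62 and 4.73 with TTNPB, and 4.83, 4.83 and 5.09 with GW1516. Here each ligand array was above each control. Pola1 rose by 0.66 ± 0.13 with retinoic acid (adjusted p = 0.00421) and by 0.66 ± 0.13 with GW1516 (adjusted p = 0.00852), and its TTNPB change was 0.39 ± 0.13 (adjusted p = 0.167). The Pola1 call with GW1516 had an adjusted p of 0.0501 without control replicate 2. The primase subunits Prim1 and Prim2 had negative changes with each ligand (-0.10 to -0.33) and no calls, and Prim2 passed with retinoic acid and TTNPB without GW1516 replicate 3 (adjusted p = 0.0368 and 0.0154).

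Pcna, the sliding clamp, and Fen1, the nuclease that trims Okazaki fragments, fell with retinoic acid. Pcna read 8.78, 8.77 and 8.84 in controls, 8.34, 8.35 and 8.40 with retinoic acid, 8.46, 8.43 and 8.43 with TTNPB, and 8.37, 8.39 and 9.02 with GW1516. Of the 9 ligand arrays, 8 lay below all controls, and GW1516 replicate 3 lay above them. Pcna fell by 0.43 ± 0.12 with retinoic acid (adjusted p = 0.0454), while the changes of -0.35 with TTNPB and -0.20 with GW1516 had adjusted p of 0.208 and 0.453. Without that array Pcna fell with retinoic acid (adjusted p = 6.83e-05), TTNPB (adjusted p = 0.00122) and, by 0.42, GW1516 (adjusted p = 0.00144). With it, the retinoic acid call of Pcna was lost whenever 1 of the 6 arrays compared was left out (adjusted p up to 0.148, without retinoic acid replicate 2). Fen1 read 4.50, 4.59 and 3.91 in controls and 3.64, 3.71 and 3.69 with retinoic acid, a fall of 0.65 ± 0.17 (adjusted p = 0.0295, or 0.155 without control replicate 2). The lowest control was still above every retinoic acid array. The call held with 1 of the 6 compared arrays left out and was lost with each of the other 5, and on the mean of its probe sets the adjusted p was 0.0609. Its changes of -0.63 with TTNPB and -0.63 with GW1516 had adjusted p of 0.0806 and 0.0537.

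The other fork genes gave no calls with the 3 ligands. The catalytic subunits of the leading and lagging strand polymerases, Pole and Pold1, changed by 0.03 and 0.07 with retinoic acid, -0.28 and -0.07 with TTNPB, and -0.09 and 0.13 with GW1516. The TTNPB arrays of Pole (6.58, 6.42 and 6.53) lay below the controls (6.77, 6.71 and 6.88), with an adjusted p of 0.304, and the GW1516 value of Pole was 0.03 without replicate 3. The RPA genes, which coat single-stranded DNA, had negative changes with each ligand. Rpa2, the middle RPA subunit, read 5.55, 5.01 and 5.35 in controls, 4.67, 4.95 and 4.84 with retinoic acid, 4.49, 4.65 and 4.96 with TTNPB, and 4.91, 4.72 and 4.09 with GW1516. All 9 ligand arrays were below the lowest control, yet with changes of -0.48, -0.60 and -0.73 (SE 0.20) the adjusted p were 0.208, 0.175 and 0.0554. Without GW1516 replicate 3, its lowest array, the GW1516 change of Rpa2 was -0.48. Of the clamp loader genes, Rfc3 and Rfc5 had negative changes with each ligand (-0.19 to -0.56), and Rfc1 changed by 0.15, -0.09 and 0.38. Rfc2 changed by -0.23, -0.25 and -0.58, and the GW1516 value rested on replicate 3 (5.46, 5.73 and 3.84), without which it was 0.0045. Lig1, the ligase that seals Okazaki fragments, changed by -0.34, -0.08 and -0.50, with adjusted p of 0.224, 0.931 and 0.0678.

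Of the nucleotide supply genes, Rrm2 and Tk1 fell with each ligand, while Rrm1 and Tyms had negative changes without a call. Rrm2, the S-phase subunit of ribonucleotide reductase, read 7.91, 7.97 and 7.90 in controls, 7.47, 7.41 and 7.47 with retinoic acid, 7.28, 7.36 and 7.26 with TTNPB, and 7.60, 7.59 and 7.23 with GW1516. The ligand arrays were below the controls throughout. Rrm2 fell by 0.47 ± 0.11 with retinoic acid (adjusted p = 0.015), 0.63 ± 0.11 with TTNPB (adjusted p = 0.00654) and 0.46 ± 0.11 with GW1516 (adjusted p = 0.0345). The GW1516 call had an adjusted p of 0.067 without replicate 3 and 0.126 without control replicate 2, and the retinoic acid call one of 0.0725 without its replicate 2. Tk1, cytosolic thymidine kinase, read 7.63, 7.58 and 7.55 in controls, 6.91, 6.82 and 7.17 with retinoic acid, 6.95, 7.02 and 7.22 with TTNPB, and 7.10, 7.07 and 7.18 with GW1516. Here too the 3 controls stood clear. Tk1 fell by 0.62 ± 0.10 (adjusted p = 0.0011), 0.52 ± 0.10 (adjusted p = 0.0135) and 0.47 ± 0.10 (adjusted p = 0.0186). Its TTNPB and GW1516 calls had adjusted p of 0.0911 without TTNPB replicate 1 and 0.0717 without control replicate 1. The large reductase subunit Rrm1 changed by -0.26, -0.13 and -0.07, and thymidylate synthase, Tyms, by -0.36, -0.36 and -0.31. Rrm2 has several probe sets, and on their mean its changes were -0.33, -0.44 and -0.25, with adjusted p of 0.11, 0.0614 and 0.278.

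**Figure D4:**
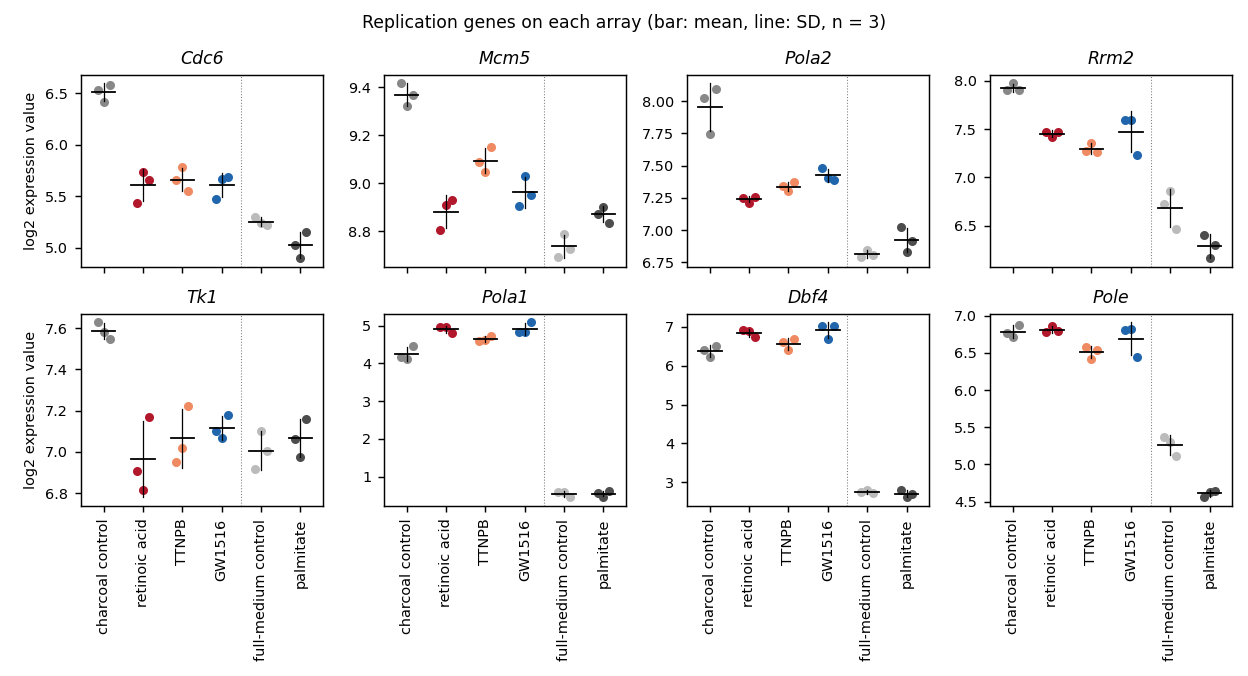
Log2 expression of 8 genes on each of the 18 arrays, by group, with a bar at the mean and a line for the SD (n = 3), and each panel on a y axis of its own. The dotted line parts charcoal serum from full medium, between which levels are not comparable. Cdc6, Mcm5, Pola2, Rrm2 and Tk1 are lower on every ligand array than on every charcoal control, Pola1 is higher, and Pole is lower on every palmitate array (4.56 to 4.64) than on every full-medium control (5.11 to 5.37).

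Counted over the 3 ligand comparisons, which share their controls, 12 genes fell and 4 rose (Dbf4, Orc3, Orc5 and Pola1) with at least 1 ligand, against 1.87% and 4.39% of all genes, and 29 had no call. The counts by role stand beside the shares of all genes given for each comparison. By role, the 15 licensing genes gave 5 falls and 1 rise with retinoic acid, 3 and 0 with TTNPB, and 4 and 1 with GW1516, with median changes of -0.38, -0.34 and -0.32. The 18 fork genes gave 3 falls and 1 rise, 1 and 0, and 1 and 1, with medians of -0.22, -0.22 and -0.28. The 4 nucleotide supply genes gave 2 falls each, with medians of -0.42, -0.44 and -0.38. Leaving out GW1516 replicate 3, the falls were 7, 8 and 5 in licensing, 4, 5 and 3 at the fork, 2, 2 and 1 in nucleotide supply, and 1, 1 and 0 in origin firing. With quantile scaling and with median centring the median over the 45 genes stayed negative for each ligand (-0.18 to -0.34). Among genes with a matched start region, the 14 with an E2F octamer had median changes of -0.34 with retinoic acid, -0.31 with TTNPB and -0.36 with GW1516, and the 23 without had -0.21, -0.19 and -0.29. With retinoic acid 4 of the 14 fell and 2 rose, and 6 of the 23 fell and 1 rose. Pola2, Rrm2 and Tk1 were among those without an octamer. These splits are descriptions and were not tested.

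The direct comparison of retinoic acid and TTNPB asks whether 2 RAR agonists, given at the same dose for the same time, left these genes at the same level. TTNPB carries aromatic rings in place of the polyene chain of retinoic acid. No member passed the test of this difference: 0 of 45 were called, where 0.153% of all genes did, and 5 of 45 had an unadjusted p below 0.05 (limma), as had 7.27% of all genes. These 5 were Mcm5, lower with retinoic acid by 0.21 (95% interval -0.34 to -0.08, adjusted p = 0.305), and Dbf4, Mcm4, Pole and Pole2, higher with retinoic acid by 0.28, 0.29, 0.30 and 0.34. For Cdc6 the difference was -0.05 (-0.29 to 0.18), for Pola2 -0.10 (-0.29 to 0.09), for Rrm2 0.15 (-0.08 to 0.39) and for Tk1 -0.10 (-0.31 to 0.11). The 95% interval lay within a 1.5-fold difference for 39 of the 45 genes. For Gins3, Gins4, Orc2, Pole2, Rfc2 and Rfc3 it reached beyond, so the data do not settle whether a 1.5-fold difference exists there. A p that misses the threshold does not show that the compounds act alike.

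**Figure D5:**
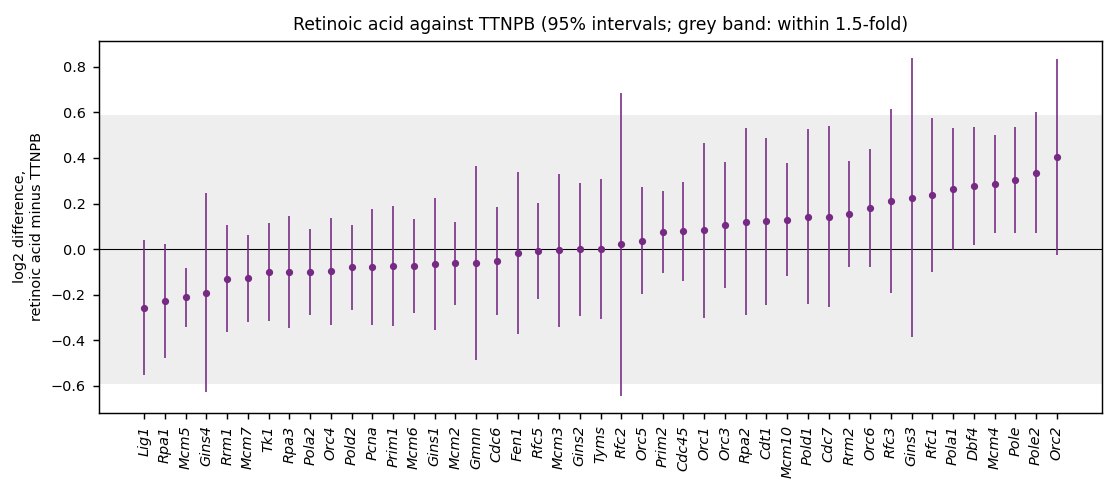
Log2 difference between retinoic acid and TTNPB for the 45 genes, ordered by size, with 95% intervals and a grey band for differences within 1.5-fold. Of the intervals, 39 lie inside the band, and the point of Mcm5 lies at -0.21.

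GW1516 addresses another receptor, and the direct comparisons gave no member calls either. Against retinoic acid 0 of 45 genes passed (0.352% of all genes did) and 5 had an unadjusted p below 0.05, as had 9.3% of all genes (limma). Against TTNPB 0 of 45 passed (0.0676% of all genes) and 9 had an unadjusted p below 0.05, as had 10.5% of all genes. Retinoic acid minus GW1516 was 0.00 for Cdc6 (-0.24 to 0.24), -0.08 for Mcm5 (-0.21 to 0.05) and -0.18 for Pola2 (-0.37 to 0.00). Orc5 was lower with retinoic acid by 0.31 (-0.54 to -0.07, adjusted p = 0.394) and with TTNPB by 0.34 (-0.58 to -0.11, adjusted p = 0.308). The interval lay within 1.5-fold for 39 genes against retinoic acid and 37 against TTNPB. P-values were adjusted over all genes within each of the 3 pairs of compounds.

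Palmitate, given in full medium, left most of the 45 genes without a call. Pole, the catalytic subunit of the leading strand polymerase, was the 1 gene that fell, and none rose, where 0.681% of all genes were called, 0.537% falling and 0.144% rising (limma; 11 of the 45, and 7% of all genes, had an unadjusted p below 0.05). Pole read 5.37, 5.31 and 5.11 in full-medium controls and 4.56, 4.63 and 4.64 with palmitate. The groups did not overlap, and Pole fell by 0.65 ± 0.11 (adjusted p = 0.00775), a 1.57-fold lower level. The median change was -0.04 over the 45 genes, or 0.0089 with quantile scaling, and 0.00 over all genes. Palmitate arrays lay wholly below the controls on 11 genes and wholly above on 5, against 8.76% and 6.46% of all genes. The Pole call was lost when only the full-medium arrays were fitted (adjusted p = 0.132) and on the mean of its probe sets (adjusted p = 0.149).

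Several licensing and supply genes were lower on every palmitate array without passing. Cdc6 read 5.30, 5.24 and 5.22 in controls and 5.02, 4.90 and 5.15 with palmitate (-0.23 ± 0.11, adjusted p = 0.751). Rrm2 read 6.73, 6.86 and 6.47 against 6.41, 6.17 and 6.30 (-0.40 ± 0.11, adjusted p = 0.147). Mcm6 read 6.61, 6.91 and 6.91 against 6.35, 6.49 and 6.54 (-0.35 ± 0.10, adjusted p = 0.149). In these 3 genes the groups did not overlap. With GW1516 replicate 3 taken out of the shared spread, 4 genes fell with palmitate, namely Pole, Rrm2, Mcm6 and Mcm3 (adjusted p = 0.000232, 0.0176, 0.0309 and 0.0191), with 1.52% of all genes falling and 0.451% rising. Mcm5 went the other way: it read 8.70, 8.79 and 8.73 in controls and 8.87, 8.90 and 8.84 with palmitate (0.13 ± 0.06, adjusted p = 0.684). Cdt1 read 7.69, 7.73 and 7.72 against 7.48, 7.33 and 7.66 (-0.22 ± 0.17, no overlap). Gmnn read 1.35, 1.11 and 1.32 against 0.90, 1.25 and 0.89 (-0.25 ± 0.20), and Pcna 7.27, 7.32 and 7.33 against 7.41, 7.25 and 7.20 (-0.02 ± 0.12), both with overlapping arrays. Orc3 changed by 0.47 ± 0.13 (adjusted p = 0.144), with all 3 palmitate arrays above the controls. In full-medium controls Orc3 (mean 0.92), Gmnn (1.26), Orc1 (0.81), Cdc7 (1.05) and Tyms (1.02) lay near the background of 0.59. Their palmitate changes are thus read close to the floor.

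Whether the palmitate change differed from a ligand's change was tested as a difference of differences, each within its own serum. Against retinoic acid, 5 of 45 genes differed: palmitate's change was higher for Pola2 by 0.82 ± 0.13, Tk1 by 0.68 ± 0.14, Cdc6 by 0.67 ± 0.16 and Mcm5 by 0.62 ± 0.09, and lower for Pole by 0.68 ± 0.16 (adjusted p = 0.00145, 0.0142, 0.0276, 0.000829 and 0.0239). Of all genes 2.56% differed, 0.491% higher and 2.07% lower. Against TTNPB, Pola2 (0.72 ± 0.13) and Mcm5 (0.41 ± 0.09) differed, where 0.568% of all genes did (0.167% higher, 0.401% lower; adjusted p = 0.0117 and 0.0431). Against GW1516, Cdc6 (0.67 ± 0.16), Mcm5 (0.54 ± 0.09), Pola2 (0.64 ± 0.13) and Rpa3 (0.75 ± 0.17) differed, where 1.26% of all genes did (0.207% higher, 1.06% lower; adjusted p = 0.0459, 0.00534, 0.0178 and 0.0306). Rrm2 did not pass in any of the 3, with differences of 0.08, 0.23 and 0.06 (95% intervals -0.25 to 0.41, -0.09 to 0.56 and -0.27 to 0.39). Dose, medium and array medians differed between palmitate and the ligands, so compound and medium cannot be told apart in these values.

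Further genes of the pathway were taken from lists set by function, also with earlier results of these data known. Of 26 other fork and origin factors, 2 fell and 3 rose with retinoic acid, 2 fell and 1 rose with TTNPB, and 2 fell and 1 rose with GW1516. Leaving out GW1516 replicate 3, these were 2 and 4, 3 and 2, and 1 and 1. Of all genes, 1.47% fell and 3.82% rose with retinoic acid, 0.64% and 0.618% with TTNPB, and 0.681% and 1.89% with GW1516. Without that array the shares were 3.1% and 5.98%, 1.87% and 1.88%, and 0.96% and 2.25%. They also stand beside the list counts that follow. The nuclease Exo1 fell with each ligand (-0.79, -0.84 and -0.66), the nuclease and helicase Dna2 fell with retinoic acid and TTNPB (-0.67 and -0.70), and topoisomerase Top2a rose with retinoic acid and GW1516 (0.72 and 0.65). Of 14 other nucleotide supply genes, 4 fell and 1 rose with retinoic acid, and 2 fell and 1 rose with TTNPB and with GW1516, or 5 and 2, 5 and 1, and 3 and 2 without that array. The purine enzyme Gart fell with each ligand (-0.74, -0.61 and -0.86), as did the folate enzyme Mthfd1 (-0.60, -0.48 and -0.61). Gart has 3 probe sets, and its values are from the one with the highest mean. Rrm2b, the p53-inducible counterpart of Rrm2, read 3.81, 3.87 and 3.82 in controls, 4.77, 4.68 and 4.42 with retinoic acid, 4.56, 4.56 and 4.39 with TTNPB, and 4.73, 4.61 and 4.61 with GW1516. It rose with each ligand, by 0.80 ± 0.13, 0.67 ± 0.13 and 0.82 ± 0.13 (adjusted p = 0.00146, 0.0164 and 0.00295), where Rrm2 fell. With palmitate no fork or origin factor passed (4 of 26 had an unadjusted p below 0.05, limma, as had 7% of all genes). Deoxycytidine kinase, Dck, fell (-0.54, adjusted p = 0.0495), where 0.537% of all genes fell and 0.144% rose.

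Of 8 genes that restore chromatin behind the fork, 3 fell with retinoic acid, and 1 fell with each of TTNPB, GW1516 and palmitate (4, 2, 2 and 1 without GW1516 replicate 3, when 1 also rose with retinoic acid). The maintenance methyltransferase Dnmt1 fell with retinoic acid (-0.50), TTNPB (-0.41) and palmitate (-0.50), with adjusted p of 0.00167, 0.0215 and 0.00789. Of 19 genes that control S-phase entry, Rb1 (1.21) and E2f5 (0.88) rose and Tfdp1 (-0.62) fell with retinoic acid, E2f6 (-0.80) and Tfdp1 (-0.59) fell with TTNPB, and none passed with GW1516 or palmitate (4 and 3 had an unadjusted p below 0.05, limma, as had 15.4% and 7% of all genes). Rb1, the retinoblastoma gene, has 2 probe sets, and its values are from the one with the higher mean. It read 6.69, 6.67 and 5.56 with GW1516. Without the third of these arrays Rb1 rose with GW1516 by 1.19 ± 0.19 (adjusted p = 0.00179) and with TTNPB by 0.95 ± 0.17 (adjusted p = 0.00255), and E2f4 fell with retinoic acid (-0.44). E2f1, the E2F most tied to S-phase entry, had no call in these 4 comparisons. Of 15 mitotic genes, the motor genes Kif11 and Cenpe rose with each ligand, by 0.87 and 0.79 with retinoic acid. Plk1 and Cdc20, a mitotic kinase and an activator of the anaphase-promoting complex, fell with retinoic acid and GW1516 (-0.34 and -0.27, then -0.35 and -0.30). The largest mitotic fall with GW1516 was that of Aurkb (-0.67, limma, adjusted p = 0.00837). Without GW1516 replicate 3 Aurkb fell with each ligand (-0.32, -0.40 and -0.46). In all, 4 mitotic genes rose and 2 fell with retinoic acid, 3 rose with TTNPB, and 4 rose and 3 fell with GW1516. These became 5 and 3, 3 and 2, and 5 and 2 without GW1516 replicate 3, and the Plk1 call with GW1516 was then lost. The shares of all genes given with the fork and origin factors stand beside these counts.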

How the data were processed

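Total RNA of 18 samples of NaF cells was hybridised to Affymetrix mouse arrays, and the values are the log2 values the authors deposited, 1 per probe set and array (41345 probe sets). Partek is named in the submitters' processing notes, and its version and the normalization are not given in the sources used here. A log2 scale was inferred from how high the values reach. Of the probe sets, 23521 carried 1 gene symbol and entered, 1 per gene (highest mean), 1814 carried several symbols and 16010 none. In limma 3.58.1 (R 4.3.3), 1 linear model with a mean per group took all 18 arrays, with a variance trend (12 residual degrees of freedom), and 2-sided p-values were adjusted by Benjamini-Hochberg over 22180 genes of 1 comparison. A gene rose or fell where the adjusted p was below 0.05. The code was tested on simulated data for retinoic acid against control over 22180 genes: it found 89 of 100 genes shifted by 1 log2 unit and 43 of 100 shifted by 0.5.

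The genes, their roles and the other lists were chosen with earlier results of these data known. In each comparison and role, up to 4 called members with the largest change were to be named, and up to 3 genes per direction and list. Cdc6, Cdt1, Gmnn, Mcm5, Pcna and Rrm2 were always to be named. Of the list genes under this rule, Atad5, Mcm8, Mcm9, Pold4, Shmt1, Asf1b, Uhrf1, Chaf1b, Ttk and Cenpf are counted but not described. Mcm2, Mcm3, Mcm7 and Mcm10, the GINS, ORC, RPA, RFC and primase genes, Cdc7, Cdc45, Pold1, Lig1, Rrm1 and Tyms are described as members where that rule did not name them, and E2f1 and E2f4 were named after their values were seen. Alternatives were fits on only the groups compared or on 1 serum, a replicate block, no variance trend, quantile scaling, median centring, dim genes left out (mean under 0.92), the mean of probe sets and each array left out. Fits without GW1516 replicate 3, and without it and palmitate replicate 2, were added after seeing the data.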

Additional observations from a re-analysis of the deposited data

Results flagged for a closer look

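The palmitate change differed from a ligand's change, each against the control in its own serum, by the test of the difference itself (limma) for these genes. Against retinoic acid the differences were 0.67 for Cdc6, 0.62 for Mcm5, 0.82 for Pola2, 0.68 for Tk1 and -0.68 for Pole. Against TTNPB they were 0.41 for Mcm5 and 0.72 for Pola2. Against GW1516 they were 0.67 for Cdc6, 0.54 for Mcm5, 0.64 for Pola2 and 0.75 for Rpa3. In Rpa3, an RPA subunit, neither change passed alone: it was -0.44 with GW1516 and 0.31 with palmitate. Without GW1516 replicate 3 the GW1516 change of Rpa3 was -0.32. Rpa3 has 2 probe sets, and the values are from the one with the higher mean.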

How the results depend on the processing

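Cdc6, Mcm5, Pola1, Pola2 and Tk1 with retinoic acid, and Cdc6 and Pola2 with TTNPB, kept their calls under every planned setting. GW1516 had no such gene. Median centring left 5 members called with retinoic acid, 2 with TTNPB, 2 with GW1516, 0 with palmitate, and 1, 0 and 0 for the palmitate differences against retinoic acid, TTNPB and GW1516. It also raised the share of rises among all calls from 72.2% to 88.0% with retinoic acid and from 73.5% to 90.2% with GW1516. Quantile scaling gave 54.7% and 58.9%, and moved it from 21.2% to 33.3% with palmitate, with 10 members called for TTNPB and 19 for GW1516. Fitting only the groups compared gave 12 with TTNPB, 0 with GW1516, 0 with palmitate, and 8 and 0 for the palmitate differences against retinoic acid and GW1516. Only same-serum arrays, or the mean of probe sets, gave 0 with palmitate. Leaving out dim genes gave 17 with GW1516 and 4 for the TTNPB difference, for which no variance trend gave 1. Without GW1516 replicate 3 and palmitate replicate 2 together the counts were 16 with TTNPB and 9, 6 and 8 for the differences. With 1 array left out, counts were 7 to 17 with retinoic acid (7 without its replicate 2), 3 to 16 with TTNPB (3 without its replicate 1 or 2 or control replicate 1), 4 to 12 with GW1516 (4 and 5 without control replicates 1 and 2), 1 to 4 with palmitate (2 without control replicate 1), and 3 to 11, 1 to 5 and 1 to 7 for the differences (1 with any 1 of the 12 compared arrays left out for TTNPB, and 1 without control replicate 1 or 3 for GW1516). The highest of each was without GW1516 replicate 3, except 12 with GW1516, without its replicate 2. Ligand pairs gave 0 throughout. The palmitate change of Pcna (-0.02) turned to 0.0089 with quantile scaling, and with 1 array left out lay between -0.083 and 0.022 (without palmitate replicates 1 and 3). Deviations of same-numbered arrays from their group means correlated by -0.23 to 0.21 in the 4 same-serum comparisons. With 3 arrays a group this does not settle whether the numbers pair arrays. With the replicate block, 12, 4, 10 and 1 members were called with retinoic acid, TTNPB, GW1516 and palmitate, and 5, 1 and 2 for the differences. The causes of these shifts were not tested. The number of arrays, 3 a group, limits the precision.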
